A study of Mus musculus with 9 samples.

Results

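The clustered protocadherin genes are a family of neuronal adhesion genes that stand in 3 neighbouring arrays, alpha, beta and gamma, on mouse chromosome 18. All genes whose symbol begins with Pcdha, Pcdhb or Pcdhg and goes on with a letter or digit were taken, which gave 58 of the 37816 genes in the counts. The alpha cluster holds 14 of them, the beta cluster 22 and the gamma cluster 22. The 9 RNA-seq libraries, 3 per group, came from whole cerebellum of C57BL/6 transgenic mice aged 18 months, a model of spinocerebellar ataxia type 3 (SCA3). Every mouse, controls included, carried a yeast artificial chromosome (YAC) with the human ATXN3 gene, with a CAG tract of 15 repeats for 15Q and of 84 repeats for both other groups, 84Q and 84Q+IGF-1. The 84Q+IGF-1 mice received 50 mg/kg insulin-like growth factor 1 by weekly intraperitoneal injection from 9 months of age. The 15Q mice were donated by another laboratory and the 84Q mice were bought from The Jackson Laboratory, so line and source differ along with the repeat. The study's methods give injections of 0.01 M PBS for the 15Q and 84Q mice, which the sample labels call untreated. Since whole tissue was extracted, fewer cells of a type and less RNA per cell cannot be told apart in any value below.

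In the alpha and gamma clusters, each gene has its own large first exon with its own promoter, and this variable exon is spliced to a set of constant exons that all genes of the cluster share. Beta genes consist of a single large exon. A neuron uses only a few of the promoters, chosen largely at random with the help of the architectural protein CTCF and the cohesin complex, while the C-type genes at the end of the alpha and gamma clusters are used far more widely. The proteins bind identical copies on other membranes, and in Purkinje cells, the output neurons of the cerebellar cortex, they let branches of the same dendrite recognise and avoid each other.

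On GRCm38, the assembly of the study's alignment, the alpha cluster spans chromosome 18 from 36930184 to 37187661, the beta cluster 37264938 to 37524479 and the gamma cluster 37661793 to 37841873, and all 58 genes lie on the plus strand. The GENCODE vM21 annotation gives the symbol Pcdha11 to 2 genes. The upstream gene (ENSMUSG00000007440.10, start at 37005203) is Pcdha10 in RefSeq and is given that name here, and Pcdha11 stands for ENSMUSG00000102206.5, which starts at 37010712. One gene, Pcdhgb8, is annotated as a polymorphic pseudogene, and the other members are protein-coding genes. The longest first exon of a coding transcript, taken as the variable exon, measured 2346 to 3028 bases in the alpha cluster and 2499 to 3247 in the gamma cluster. Beta exons ran from 2588 bases in Pcdhb1 to 8695 in Pcdhb14.

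The variable exons of a cluster resemble each other, which bears on how a read can be assigned. In words of 31 bases, a median of 20.5% of an alpha exon was also found in another member's exon, with the highest share in Pcdha7 at 36.6% and the next in its closest relative, Pcdha8, at 30.1%. The median was 11.8% over the beta exons and 3.65% over the gamma exons. Within the gamma cluster the Pcdhgb genes shared between 8.78% and 23.5% of their words, and the Pcdhga genes between 0.0664% and 9.30%. None of the 5 C-type exons (Pcdhac1, Pcdhac2, Pcdhgc3, Pcdhgc4 and Pcdhgc5) shared a word with another member. The median GC content was 53.1% in the alpha, 46.0% in the beta and 52.5% in the gamma exons. The ratio of observed to expected CpG had a median of 0.665 in the alpha and 0.555 in the gamma exons and did not pass 0.490 in any beta exon.

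Bases shared between genes were handled by the authors' counting in a way not given in the sources used here, and were examined in the counts. Of the 153 annotated genes with at least 500 bases free of other genes on their own strand but none free on both strands, 149 had no count and the highest total over the 9 libraries was 36. Among the other 40030 genes with 500 such bases, 8736 had no count and the median total was 48. Of 152 genes covered in full by genes of their own strand, 115 had no count, 10 had more than 9 and the highest total was 8100. Levels were divided by the bases shared with no gene on either strand, which leaves out the constant exons. The median share of exon bases shared with another gene was 53.6% in the alpha and 45.3% in the gamma cluster, and 0% in the beta cluster. All 4732 exon bases of Pcdhga10 are shared, so this gene has no level. It had 2 to 8 counts per library, and the part of the sharing in this low count was not tested. Pcdha4, with 404 unshared bases of 5768, had 4 to 30 counts.

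Library totals ran from 17482654 to 58269196 counts, so that the floor of 3 counts per library corresponded to 0.0513 to 0.171 CPM (the count of a gene scaled to a common library size, with the TMM factors of edgeR). The labelled tissue was checked with markers. The 9 Purkinje cell genes summed to between 7405 and 8311 CPM and 8 granule cell genes to between 5266 and 6113, and for both the groups overlapped. Of the Purkinje cell genes, 2 (Pcp2 and Slc1a6) were higher in 84Q than in 15Q at an adjusted p under 0.1 (edgeR), which 4.8% of all genes passed. None was called, and 4 had all 84Q libraries above 15Q, beside 11.9% of all genes. Of 6 microglial genes, 1 (Csf1r) was higher in 84Q at that adjusted p, with none called and a median log2 fold change of 0.29. Of 7 inhibitory interneuron genes, 1 (Pvalb) was higher at that adjusted p in both comparisons with 15Q, beside 4.8% and 3.67% of all genes. Of 7 genes of astrocytes and Bergmann glia, 1 (Aqp4) was lower at it in 84Q+IGF-1, and 3 had all 84Q libraries below 15Q, beside 13.5% of all genes. None of either list was called. Microglial genes did not pass 165 CPM in sum, endothelial genes 242 and brainstem genes 5.19. The 7 oligodendrocyte genes summed to 4071 to 4381 CPM for 15Q, 4008 to 5033 for 84Q and 3062 to 4020 for 84Q+IGF-1. Their 84Q+IGF-1 sums lay below all 15Q sums, with 2 genes lower at an adjusted p under 0.1 (edgeR), beside 3.67% of all genes, and none called. All 7 had values below 0 between 84Q+IGF-1 and 84Q, beside 51.2% of all genes. Markers of other tissues were not even. All 6 skeletal muscle genes and the 5 of 6 intestine genes that were tested were called lower in both groups with 84 repeats. Of all genes, 2.14% were called in 84Q and 2.25% in 84Q+IGF-1 against 15Q. The sums of the muscle and intestine genes were 15.8 ± 3.44 and 30.4 ± 6.74 CPM (SD, n = 3) with 15 repeats, and at most 2.48 and 5.93 CPM in any of the other 6 libraries. Of 6 meningeal genes, 3 were called lower in 84Q and 5 in 84Q+IGF-1, beside the same 2.14% and 2.25% of all genes. The meningeal sums of 88.9 to 136 CPM for 15Q stood above the 46.3 to 73.5 for 84Q and the 39.8 to 55.4 for 84Q+IGF-1. Choroid plexus genes varied within groups, and the 12 of them summed to 536, 45.6 and 525 CPM for 15Q, 46.0, 1084 and 29.2 for 84Q and 28.9, 30.2 and 71.9 for 84Q+IGF-1. Xist, which coats the inactive X chromosome, was high, at 719 to 949 CPM, in 4 libraries (replicates 2 and 3 of 15Q, replicate 1 of 84Q, replicate 2 of 84Q+IGF-1), and at no more than 1.15 CPM in the other 5. The part of these differences in the results on protocadherin genes was not tested beyond the values given with them.

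Across the 9 libraries, the C-type gene Pcdhgc3 and the gamma gene Pcdhgb6 had the highest levels per length, in an order that depended on the length used, and the median gamma gene stood above the median alpha and beta genes. Levels between genes are given as CPM per kilobase of unshared exon. Pcdhgc3 reached 48.6 ± 3.53 (SD over 9 libraries), Pcdhgb6 27.0 ± 2.26 and the C-type gene Pcdhac2 18.0 ± 0.724, and this order held in all 9 libraries with this length. With bases unshared on the same strand alone, Pcdhgc3 was at 26.2 and Pcdhgb6 at 27.0, so their order turned. Pcdhgb7 followed at 14.2 ± 1.24, and from there on most neighbours in the order of levels differed by less than their spread. This was so for Pcdhgb7, Pcdhga4, Pcdhga12, Pcdhga11 and Pcdhga3, which lay between 14.2 and 11.7. With same-strand bases as the length, Pcdhga11 was at 5.89 and Pcdhgb7 at 9.96, while Pcdhga4 and Pcdhga3 kept their levels. Of the 56 pairs of neighbours in the order of all 57 genes with a level, 9 differed by more than the larger of their SDs. The median level was 8.09 in the gamma cluster, against 1.58 in the alpha and 1.64 in the beta cluster.

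**Figure D1:**
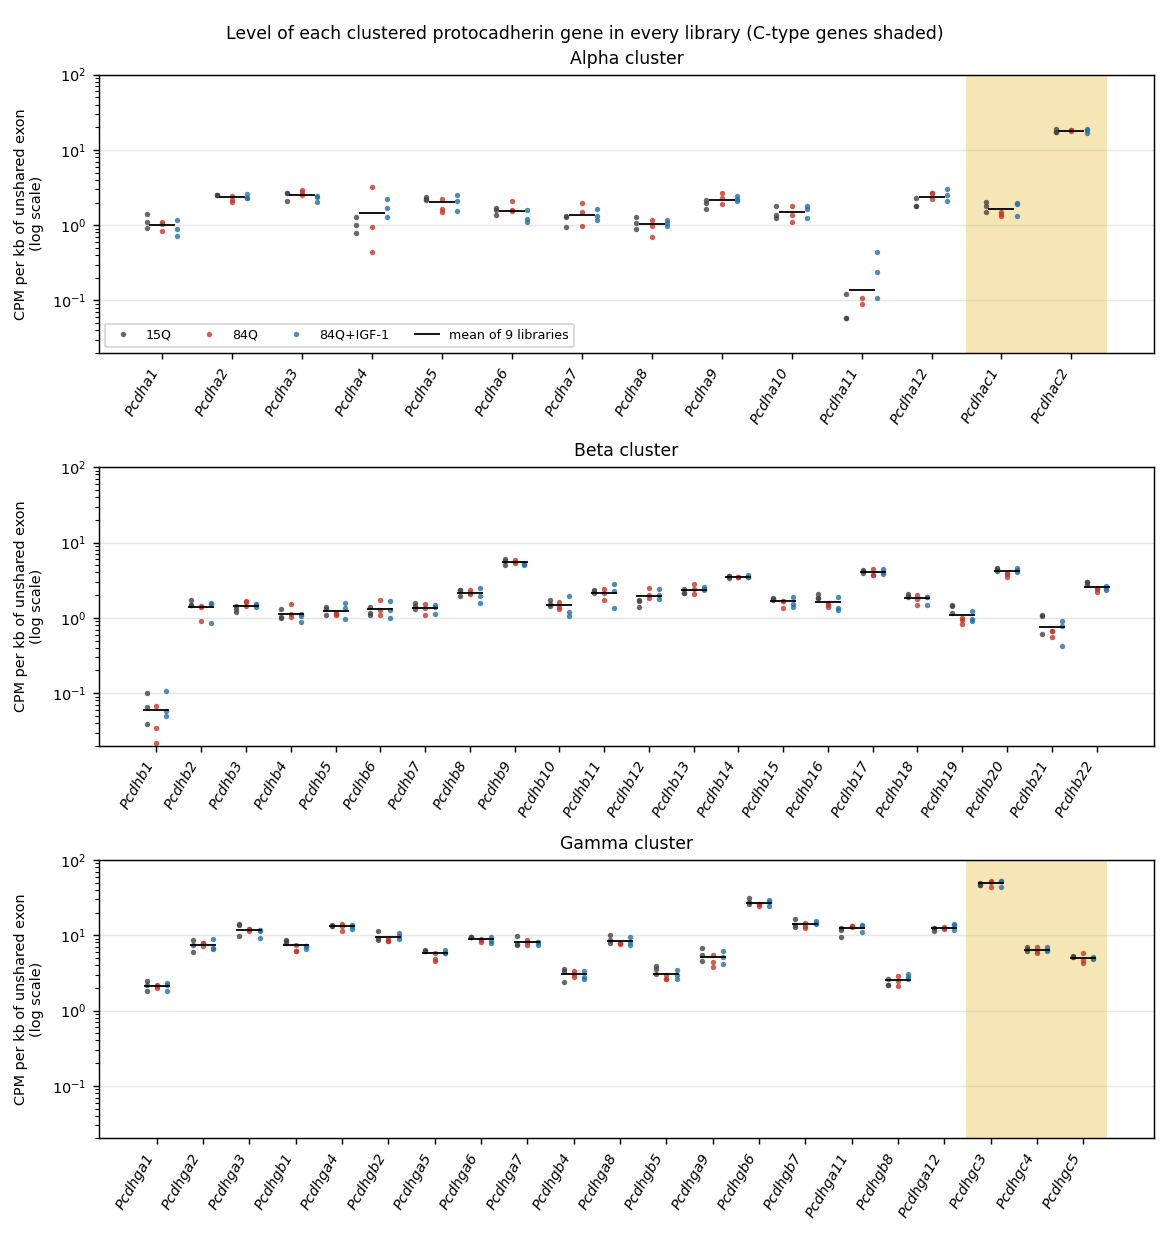
Level of each gene in CPM per kilobase of unshared exon (log axis), with genes in chromosome order, 1 point per library coloured by group, a bar at the mean of 9 libraries and the C-type genes shaded. With this length Pcdhgc3 (mean 48.6), Pcdhgb6 (27.0) and Pcdhac2 (18.0) lead, Pcdhb1 and Pcdha11 lie lowest, 1 library without a count of Pcdha11 has no point and Pcdhga10 has no unshared exon.

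The alpha cluster was led by its last gene. Pcdhac2 alone held 54.0% ± 0.962 of the summed alpha CPM (SD, n = 9 libraries), and its library values ran from 17.0 to 18.9 CPM per kilobase. Next were Pcdha3 at 2.50 ± 0.291 and Pcdha2 at 2.38 ± 0.201, which did not differ beyond their spread. The other alpha C-type gene, Pcdhac1, which stands before Pcdhac2, was at 1.64 ± 0.280, within the range of the ordinary alpha genes. Pcdha11 was lowest with 0 to 15 counts per library. It has 1268 unshared bases, since genes on the opposite strand cover most of its other exon bases.

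In the beta cluster, Pcdhb9 had 5.44 ± 0.383 CPM per kilobase, Pcdhb20 4.17 ± 0.389 and Pcdhb17 4.07 ± 0.296, and the last 2 did not differ beyond their spread. The first gene of the cluster, Pcdhb1, had 1 to 10 counts per library over 2588 unshared bases, or 0.0602 ± 0.0286 CPM per kilobase. It was at or under the floor of 3 counts in 3 libraries and Pcdha11 in 4, and these genes, the lowest in the order of levels, did not differ from each other beyond their spread. The next lowest beta gene, Pcdhb21, stood at 0.752 ± 0.228. Pcdhb14, with the longest exon, reached the highest read count of the beta cluster but only 3.53 ± 0.0989 CPM per kilobase.

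In the gamma cluster, the 12 Pcdhga and 7 Pcdhgb genes are interspersed along the chromosome and covered overlapping ranges. The 11 Pcdhga genes with a level lay between 2.11 and 13.1 CPM per kilobase, with a median of 8.32, and the Pcdhgb genes between 2.54 and 27.0, with a median of 7.32. Pcdhga1, the first gene of the array, was the lowest at 2.11 ± 0.218. Of the 3 C-type genes, only Pcdhgc3 stood out, while Pcdhgc4 was at 6.44 ± 0.404 and Pcdhgc5 at 5.02 ± 0.439, below the gamma median. Pcdhgb8, the annotated pseudogene, had 107 to 385 counts per library and 2.54 ± 0.339 CPM per kilobase.

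All together, the 5 C-type genes took 29.9% ± 1.03 of the counts on alpha and gamma genes (SD, n = 9 libraries), and 30.5% ± 1.03 of their summed level per kilobase. By group, the share of counts was 29.1% ± 0.512 in 15Q, 30.6% ± 1.20 in 84Q and 30.1% ± 0.831 with IGF-1 (SD, n = 3 each), and the ranges overlapped. Pcdhac2 and Pcdhgc3 accounted for most of it. 15Q libraries held 90.4, 85.2 and 83.2 CPM of Pcdhgc3, 84Q libraries 80.2, 92.7 and 94.2, and 84Q+IGF-1 libraries 94.5, 96.3 and 80.0. 15Q libraries held 56.5, 52.1 and 51.8 CPM of Pcdhac2, 84Q libraries 54.1, 55.3 and 56.3, and 84Q+IGF-1 libraries 54.8, 57.3 and 51.4. For both genes the 3 groups overlapped.

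The order of levels was alike in all libraries. Spearman's rho of CPM over the 55 tested members, across genes, which are not independent, lay between 0.963 and 0.979 for the 9 pairs of libraries of the same group and between 0.944 and 0.984 for the 27 pairs of different groups. Over the 14 alpha genes, the level had a Spearman's rho of −0.53 with the share of 31-base words found in other members, against 0.11 over the 22 beta and −0.07 over the 21 gamma genes with a level. With the position of the gene in its array, rho was 0.13, 0.40 and 0.13 in the alpha, beta and gamma clusters. With GC content it was 0.12, −0.12 and 0.19, with Pearson's r of the log2 level at 0.55, −0.22 and 0.44, and with the CpG ratio rho was −0.26, −0.13 and 0.35.

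Summed over each cluster, the alpha genes did not differ between the groups beyond their spread, and the beta genes were the only cluster in which 2 groups lay apart. The alpha sum was 99.5 ± 4.05 CPM for 15Q, 101 ± 1.80 for 84Q and 101 ± 6.33 for 84Q+IGF-1 (SD, n = 3). For the beta genes, 15Q libraries reached 199, 201 and 198 CPM and 84Q libraries 186, 180 and 186, all below them. With IGF-1 the beta sum was 168, 206 and 189 CPM, a range that covers both other groups. The log2 ratio of the mean beta sums was −0.11 for 84Q against 15Q and −0.09 for 84Q+IGF-1 against 15Q. On the same scale, the SD among libraries of a group, pooled over the 3 groups, was 0.09. Most of that spread was in 1 group, since the SD of the beta sum was 1.96 CPM for 15Q, 3.03 for 84Q and 19.1 for 84Q+IGF-1 (n = 3 each). Gamma genes summed to 556 ± 26.9 CPM for 15Q, 527 ± 29.3 for 84Q and 546 ± 25.0 for 84Q+IGF-1, and the groups overlapped. No test was made on these sums.

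**Figure D2:**
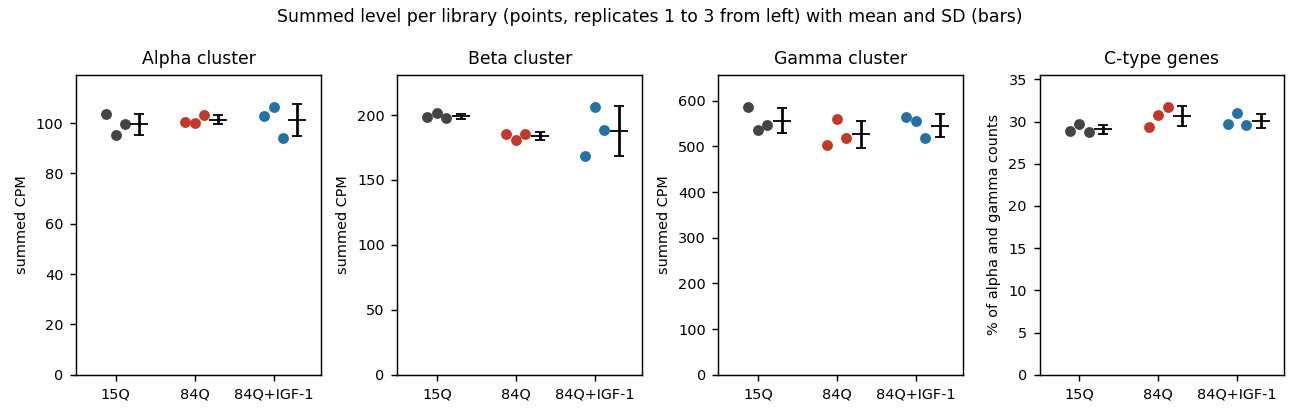
Summed CPM of the alpha, beta and gamma clusters and the share of C-type genes in the counts of the alpha and gamma clusters, per library (points) with group mean and SD (bars, n = 3), on axes from 0. In the beta cluster the 84Q libraries (180 to 186 CPM) lie below the 15Q libraries (198 to 201), and the 84Q+IGF-1 libraries (168 to 206) cover both.

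The comparison of 84Q with 15Q addresses the effect of the expanded repeat, which cannot be told apart from that of the transgenic line and its source. No clustered protocadherin gene was called in it. A call required both a 1.5-fold difference and an adjusted p (quasi-likelihood test of edgeR, adjusted by Benjamini-Hochberg over the 19353 genes with enough counts) under 0.1, which 2.14% of these genes met. Pcdhb1, Pcdha11 and Pcdhga10 had too few counts to be tested, which left 55 members. Pcdhb19 and Pcdhgb1, both lower in 84Q, passed the threshold of the adjusted p alone, which 4.8% of all genes did (3.25% of all genes passed with lower values). At an unadjusted p under 0.05, 8 members were lower and 1 was higher, or 14.5% and 1.82% of the 55, beside 10.4% and 9.04% of all genes. With the Wald test of DESeq2 as well, no member was called, beside 2.18% of the genes to which it gave an adjusted p. By DESeq2, 8 of 58 members, or 13.8%, had an unadjusted p under 0.05, beside 10.2% of 37794 genes not filtered for low counts. Over the genes with enough counts, edgeR gave such a p to 16.4% of the members and to 19.4% of all genes. With DESeq2, 5 members, or 8.62%, passed the adjusted p alone, beside 6.30% of the genes with an adjusted p. They were Pcdhb19, Pcdhb22, Pcdhga5, Pcdhgb1 and Pcdhgb5, all lower in 84Q.

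Pcdhb19 (ENSMUSG00000043313.6, chromosome 18, 37496991 to 37504128) is a beta gene near the end of its array, and its single exon of 7138 bases is shared with no other gene. 15Q libraries held 8.36, 10.1 and 10.5 CPM of it, 84Q libraries 7.14, 6.64 and 5.93, and 84Q+IGF-1 libraries 6.48, 8.89 and 6.92. The 84Q libraries all lay below the 15Q libraries, and 84Q+IGF-1 replicate 2 lay within the 15Q range. Between 84Q and 15Q the log2 fold change of −0.56 had a standard error of 0.14 and an adjusted p of 0.0773 by edgeR, and was just short of the fold threshold, which corresponds to 0.58. Between 84Q+IGF-1 and 15Q it was −0.38, with a standard error of 0.14 and an edgeR adjusted p of 0.193. In each group the libraries with high Xist were above the others for Pcdhb19, which held for 3 of the 55 members, or 5.45%, beside 6.00% of all genes. Without 15Q replicate 1 or without 84Q replicate 1, Pcdhb19 passed both thresholds, with log2 fold changes of −0.64 and −0.62 and edgeR adjusted p values of 0.0526 and 0.0843. With the log2 CPM of Xist as a covariate, its log2 fold change was −0.44 (adjusted p = 0.101 by edgeR).

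Pcdhgb1 (ENSMUSG00000103037.1, chromosome 18, 37680233 to 37841870), one of the first gamma genes, stood at 22.8, 20.9 and 22.3 CPM for 15Q, 16.3, 19.4 and 16.1 for 84Q and 19.1, 18.9 and 17.2 for 84Q+IGF-1. Here all 6 libraries with 84 repeats lay below the 15Q libraries. Relative to 15Q, the log2 fold change was −0.35 for 84Q, with a standard error of 0.09 and an edgeR adjusted p of 0.0833, and −0.26 for 84Q+IGF-1, with a standard error of 0.09 and an edgeR adjusted p of 0.178. Its 95% interval in 84Q, −0.55 to −0.14, lay within a fold change of 1.5. With a summed choroid plexus level as a covariate, chosen after seeing the data, the adjusted p was 0.114 for Pcdhgb1 and 0.104 for Pcdhb19 (edgeR).

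The other 6 members with lower values at an unadjusted p under 0.05, named here after their values were seen, were the beta genes Pcdhb16, Pcdhb20 and Pcdhb22 and the gamma genes Pcdhga5, Pcdhgb5 and Pcdhgb6. Their log2 fold changes were between −0.17 for Pcdhgb6 and −0.39 for Pcdhb16, and their adjusted p values between 0.11 for Pcdhb22 and 0.244 for Pcdhgb6 (edgeR). In each of the 6, the 84Q libraries all lay below the 15Q libraries. Pcdhb22, the last beta gene, stood at 16.8, 18.4 and 18.6 CPM for 15Q, 15.5, 13.4 and 14.8 for 84Q and 14.2, 15.3 and 16.4 for 84Q+IGF-1. The gene with higher values was Pcdha12, at 4.46, 3.45 and 3.52 CPM in 15Q and 4.35, 5.23 and 5.24 in 84Q. These groups overlapped, and its log2 fold change of 0.38 had a standard error of 0.17 and an edgeR adjusted p of 0.254.

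Counted over all 55 members, 13 had their 84Q libraries all below the 15Q libraries, or 23.6%, beside 13.5% of all genes, and 2 had them all above, or 3.64%, beside 11.9%. The 2 were Pcdhb12 and Pcdhga11, both of which share exon bases with genes of the opposite strand and were named after their values were seen. The fold changes were small. The median log2 fold change was 0.05 over 13 alpha genes, −0.11 over 21 beta genes and −0.07 over 21 gamma genes, beside −0.00 over all genes. Values below 0 were found in 6 alpha, 15 beta and 16 gamma genes, 37 of 55 or 67.3% in all, beside 50.3% of all genes. Among the beta genes, the 11 from Pcdhb12 to Pcdhb22 had a median of −0.19, with 9 lower and 4 at an unadjusted p under 0.05, and the 10 from Pcdhb2 to Pcdhb11 a median of −0.06, with 6 lower and 0 at that p. The division at the middle of the array was made after seeing the data, and the difference was not tested.

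**Figure D3:**
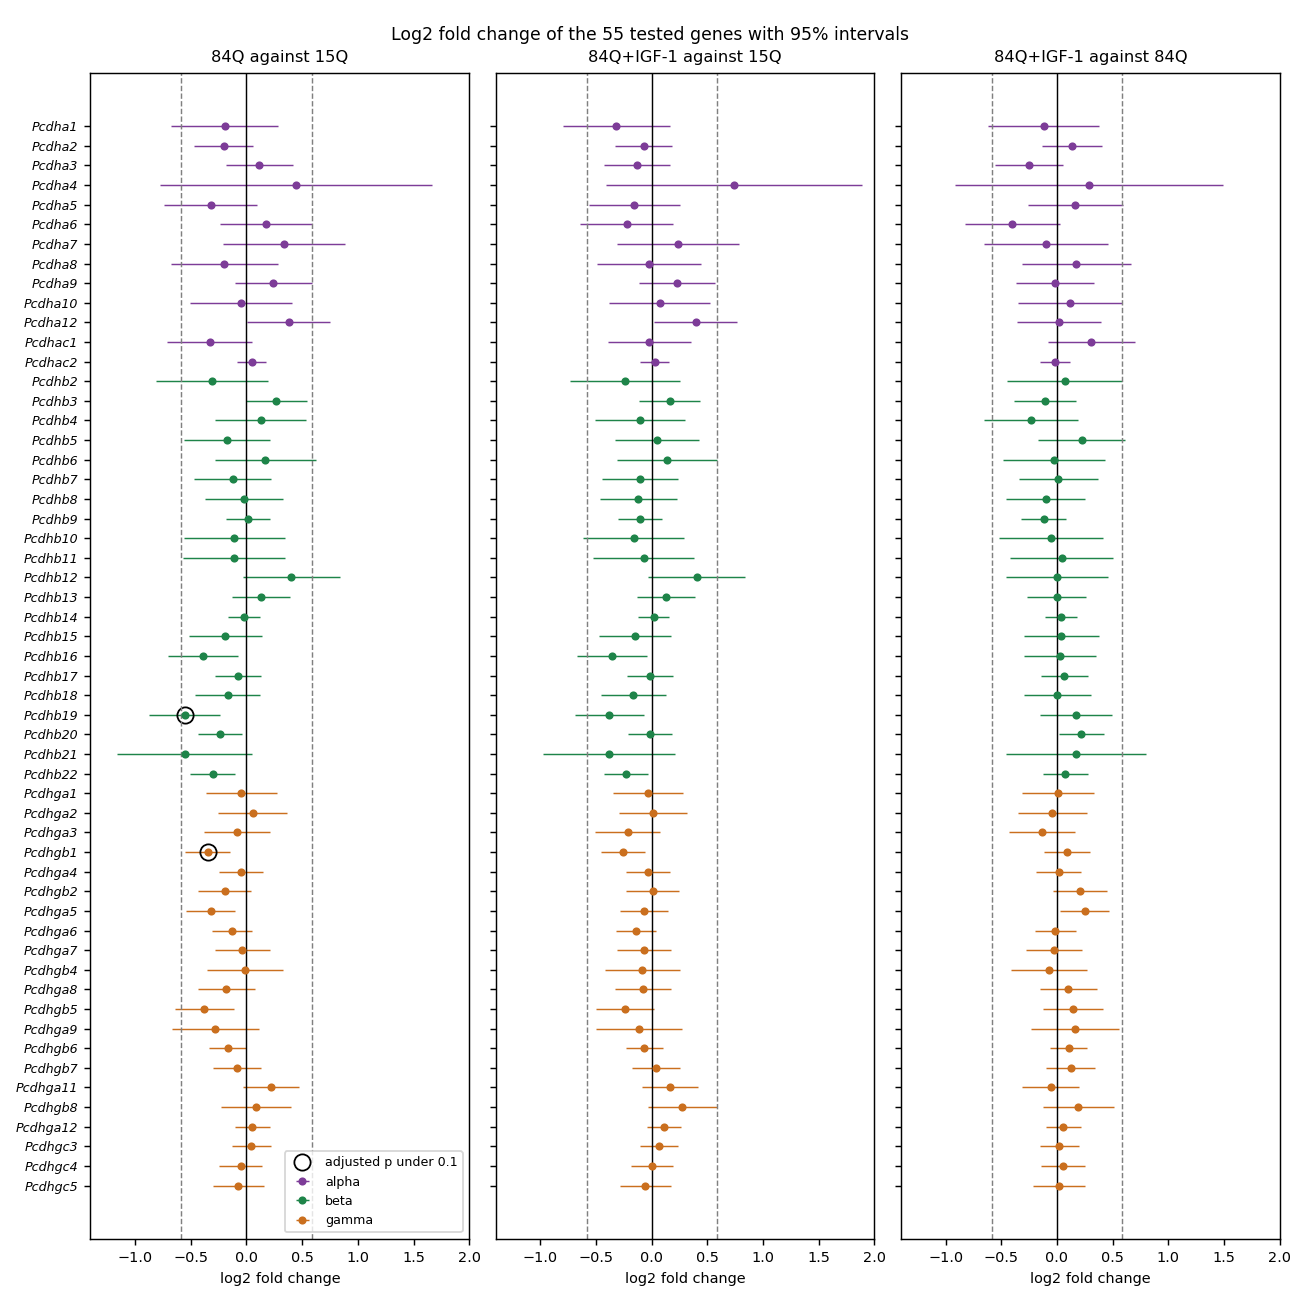
Log2 fold change (points) with 95% interval (lines) of the 55 tested genes in the 3 comparisons, in chromosome order and coloured by cluster, with dashed lines at a fold change of 1.5 and circles at an adjusted p under 0.1. Circles mark Pcdhb19 (−0.56) and Pcdhgb1 (−0.35) in 84Q against 15Q, and no gene has one in the other comparisons.

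In 84Q against 15Q, the 95% interval lay within a fold change of 1.5 in either direction for 39 of the 55 members, or 70.9%, beside 63.3% of all genes. These were 5 of 13 in the alpha, 15 of 21 in the beta and 19 of 21 in the gamma cluster. Pcdhac2 had a log2 fold change of 0.05 with an interval from −0.08 to 0.18, Pcdhgc3 0.04 with −0.13 to 0.22 and Pcdhb14 −0.02 with −0.16 to 0.12. Pcdha4, with few counts, had 0.45 with an interval from −0.77 to 1.67, which does not bound its change to a factor of 1.5. It was also the most variable member for its count. Over the 5 C-type genes and 3 comparisons, the log2 fold changes ran from −0.33 to 0.31, with adjusted p values of 0.328 and above (edgeR). Both extremes belonged to Pcdhac1, whose levels were 4.54, 5.14 and 3.88 CPM for 15Q, 3.35, 3.78 and 3.65 for 84Q and 4.89, 5.05 and 3.43 for 84Q+IGF-1. Its 84Q libraries lay below those of 15Q and overlapped 84Q+IGF-1 replicate 3.

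The 84Q+IGF-1 and 15Q groups differ in repeat length, transgenic line, source and treatment, and this comparison shares its 15Q libraries with the one above. No member was called, beside 2.25% of all genes, and none passed the adjusted p alone, beside 3.67% of all genes (2.63% of all genes passed with lower values). At an unadjusted p under 0.05, 4 members were lower (Pcdhb16, Pcdhb19, Pcdhb22 and Pcdhgb1) and 1 was higher (Pcdha12), or 7.27% and 1.82%, beside 10.4% and 7.36% of all genes. DESeq2 called no member, beside 2.46%, and gave 5, or 8.62%, an unadjusted p under 0.05, beside 9.60% of the genes not filtered for low counts. By edgeR such a p was found in 9.09% of the members and 17.7% of the genes tested. The 84Q+IGF-1 libraries all lay below the 15Q libraries in 4 members, or 7.27%, beside 13% of all genes, and all above them in 2, Pcdha4 and Pcdhb12, or 3.64%, beside 11.7%. The median log2 fold change was −0.02 in the alpha, −0.11 in the beta and −0.06 in the gamma genes, with 35 of 55 members below 0, beside 51.1% of all genes. The interval lay within a fold change of 1.5 for 43 of the 55, or 78.2%, beside 63.9% of all genes.

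The comparison of 84Q+IGF-1 with 84Q addresses the treatment in mice with the expanded repeat. No gene was called by edgeR (0%), while 905 genes, or 4.68%, had an unadjusted p under 0.05, 2.84% with lower and 1.83% with higher values, and DESeq2 called 6 genes, none a member. Of the members, 2 had such a p by edgeR, or 3.64%, both higher. By DESeq2 there were 2, or 3.45%, beside 2.29% of the genes not filtered for low counts. The treated libraries all lay above the 84Q libraries in 1 member, beside 3.96% of all genes, and below them in 2, Pcdha3 and Pcdhb9, beside 4.5%. Values below 0 were found in 20 of 55 members, beside 51.2% of all genes. The 1 member above was Pcdhb20, at 13.6, 12.3 and 14.1 CPM for 84Q, 14.6, 15.4 and 16.4 with IGF-1 and 15.9, 16.5 and 14.7 for 15Q. Its log2 fold change of 0.22 had a standard error of 0.09 and an edgeR adjusted p of 0.969. Pcdhga5 stood at 11.5, 14.8 and 12.4 CPM for 84Q, 16.1, 14.8 and 15.0 with IGF-1 and 16.4, 15.9 and 15.9 for 15Q, and its 84Q and 84Q+IGF-1 libraries overlapped only at their nearest values. The log2 fold change of Pcdhga5 was 0.25 with a standard error of 0.10, and that of Pcdha6, the alpha gene with the smallest p, −0.40 with a standard error of 0.20, both at an edgeR adjusted p of 0.969. For 44 of the 55 members the interval lay within a fold change of 1.5, beside 66.2% of all genes.

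Members differed in how much they varied among libraries of the same group. The biological coefficient of variation of each gene (the spread beyond counting error) was divided by the trend at its mean count. This ratio had a median of 0.885 over the members and 0.833 over all genes, and was below 1 in 43 of 55 members, or 78.2%, beside 76.6% of all genes. The steadiest were Pcdha2 (0.654), Pcdhb14 (0.660) and Pcdhb3 (0.677). Pcdhb14 ran from 29.6 to 32.5 CPM over the 9 libraries, and its highest library was 1.10 times its lowest. The most variable were Pcdha4 (1.68), Pcdhga9 (1.40) and Pcdhb11 (1.36). For Pcdhga9, 15Q libraries held 18.8, 15.9 and 23.4 CPM, 84Q libraries 15.5, 19.0 and 13.3, and 84Q+IGF-1 libraries 21.7, 17.8 and 14.3, with all groups overlapping. Pcdhb11 had 6.01 CPM in 84Q+IGF-1 replicate 1 and 12.5 in replicate 2 of the same group, and between 7.56 and 10.5 in the other libraries.

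The beta genes of 2 libraries of the treated group, picked after their values were seen, lay mostly on opposite sides of their means. No share over all genes stands beside the counts that follow. In 84Q+IGF-1 replicate 1, 18 of the 21 tested beta genes were below their mean over the 9 libraries, with a median log2 difference of −0.28, and 9 of them had their lowest value there. In replicate 2, 3 were below their mean, the median was 0.14, and 6 had their highest value. The gamma genes of these libraries did not follow, with medians of 0.09 and 0.05, nor did the alpha genes, with 0.03 and 0.07. Among the gamma genes, 84Q replicate 1 was low, with 17 of 21 below their mean and a median of −0.14, and 15Q replicate 1 was high, with 3 below and a median of 0.10. Xist was high in 84Q+IGF-1 replicate 2 and 84Q replicate 1 and low in the other 2 libraries. The 7 oligodendrocyte genes summed to 3062 CPM in 84Q+IGF-1 replicate 1, the lowest of the 9 libraries, to 3795 in replicate 2 and to 5033 in 84Q replicate 1, the highest. The part of Xist and of these markers in the differences was not tested. Such counts were not limited to these libraries. In each of 84Q replicates 1 and 2, 15 of the 21 beta genes were below their mean, and in 84Q replicate 3, 15 of the 21 gamma genes were.

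**Figure D4:**
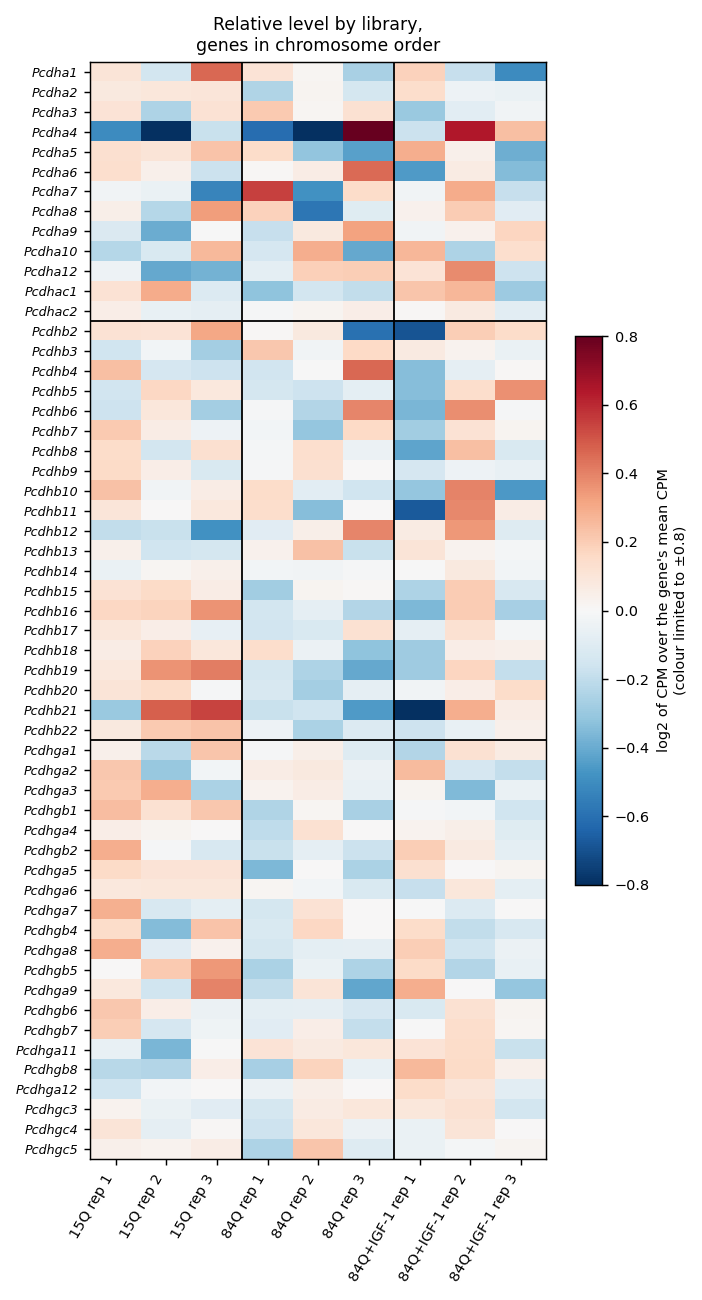
Log2 of CPM over the mean CPM of the gene for the 55 tested genes (rows, in chromosome order, clusters divided by lines) in the 9 libraries (columns), with the colour limited to ±0.8. In 84Q+IGF-1 replicate 1, 18 of 21 beta genes are below their mean, in each of 84Q replicates 1 and 2 15 are, and in 84Q+IGF-1 replicate 2 only 3 are.

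Of the other genes annotated between the first and the last base of the 3 clusters, few were transcribed at a comparable level. Taf7, a subunit of the general transcription factor TFIID that stands between the beta and gamma clusters, stood at 13.1, 18.3 and 16.1 CPM for 15Q, 14.4, 15.4 and 18.0 for 84Q and 15.1, 13.4 and 15.5 for 84Q+IGF-1, and the groups overlapped. The long non-coding RNA 3222401L13Rik had a mean of 11.0 CPM and the minus-strand transcripts Gm26672, BC037039 and Gm29994 had 0.853, 0.787 and 1.43, all chosen after their values were seen. None of them was called in any comparison. Of 15 genes flanking the clusters, none was called in any comparison, beside 2.14% of all genes in 84Q and 2.25% in 84Q+IGF-1 against 15Q. Between 84Q+IGF-1 and 15Q, 2 of the 15 had values below 0, beside 51.1% of all genes, and 6 had all treated libraries above 15Q, beside 11.7%. Zmat2, near the alpha cluster, had a log2 fold change of 0.07 in 84Q and 0.21 in 84Q+IGF-1 against 15Q, and Diaph1, near the gamma cluster, −0.06 and 0.04. The flanking genes with the highest CPM were Ik, Zmat2 and Hdac3, with means of 185, 72.5 and 67.3, and the lowest adjusted p of the list was 0.2 (edgeR), for Hdac3. The list had a median log2 fold change of 0.07 between 84Q and 15Q.

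Genes that act on the choice of promoter were next examined. The list held 23 genes for CTCF, cohesin and its regulators, DNA methylation and other repressors, all tested, and none was called in any comparison, beside 2.14% and 2.25% of all genes in the comparisons with 15Q. In 84Q against 15Q, Nipbl, which loads cohesin, had a log2 fold change of −0.39, with a standard error of 0.11 and an edgeR adjusted p of 0.0863, and Wapl, which releases it, −0.23, with a standard error of 0.06 and an edgeR adjusted p of 0.0939. Both, named after their values were seen, passed the threshold of the adjusted p but not that of the fold. Of all genes, 4.8% passed that adjusted p, 3.25% with lower values. Nipbl stood at 90.6, 108 and 119 CPM for 15Q, 86.8, 81.4 and 74.5 for 84Q and 78.9, 101 and 91.3 for 84Q+IGF-1, so the 84Q libraries were below the 15Q libraries and the treated libraries overlapped both. The list had a median of −0.16 in 84Q, with 19 of 23 genes at a lower value, beside 50.3% of all genes. All 84Q libraries lay below 15Q in 13, beside 13.5% of all genes, and above in none, beside 11.9%. In 84Q+IGF-1 against 15Q the median was −0.08, with 17 lower, beside 51.1% of all genes, 5 with all treated libraries below 15Q, beside 13%, and 1 with all above, beside 11.7%. In 84Q+IGF-1 against 84Q the median was 0.07, with 3 lower, beside 51.2% of all genes, none with all treated libraries below 84Q, beside 4.5%, and 3 with all above, beside 3.96%. Of the most abundant genes of the list, the cohesin subunit Rad21 and the methyltransferase Dnmt3a had means of 253 and 211 CPM and log2 fold changes of −0.11 and −0.10 in 84Q, neither past the threshold.

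Partners of the proteins and other recognition genes were examined in the same way. Of 21 genes for partners and signalling, none was called in any comparison, beside 2.14% and 2.25% of all genes in the comparisons with 15Q, and the median between 84Q and 15Q was 0.02 on the log2 scale. Between 84Q+IGF-1 and 15Q, 6 of the 21 had values below 0, beside 51.1% of all genes, and 6 had all treated libraries above 15Q, beside 11.7%. The most abundant genes of the list were Cyfip2 and Nckap1, members of the WAVE complex that acts on actin, and Nlgn2, an adhesion protein of inhibitory synapses, with means of 1115, 309 and 320 CPM and log2 fold changes between −0.04 and 0.07 in 84Q. The 8 other genes for self-avoidance and recognition, led by Megf11, Megf10 and Dscaml1 at 256, 99.2 and 55.8 CPM, also had no call, with a median of −0.06. Among the 12 non-clustered protocadherins, which stand alone in the genome, 1 was called in 84Q against 15Q, beside 2.14% of all genes. Pcdh8, a protocadherin of synapses, stood at 1.75, 1.44 and 1.59 CPM for 15Q, 2.83, 2.99 and 3.14 for 84Q and 2.10 ± 0.557 (SD, n = 3) for 84Q+IGF-1. The 84Q libraries lay above all others, and the log2 fold change from 15Q of 0.91 had a standard error of 0.21 and an edgeR adjusted p of 0.0497. Without 15Q replicate 2, replicate 3 of 15Q or replicate 3 of 84Q the adjusted p was 0.191, 0.178 and 0.139, and Pcdh8 was not called. In 84Q+IGF-1 against 15Q it was 0.41 (adjusted p = 0.329) and in 84Q+IGF-1 against 84Q −0.50 (adjusted p = 0.969, edgeR). The median over the list was −0.03 in 84Q, with 8 of 12 lower, beside 50.3% of all genes.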

How the data were processed

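The values are read counts per gene from the cerebellum of 9 mice. The authors trimmed the reads (Trimmomatic 0.36), aligned them to mm10, which is GRCm38 (HISAT2 2.2.0), and counted them (featureCounts), and deposited unnormalized counts. The annotation and strand setting of the counting are not given in the sources used here. The library kit marks strand. Identifiers were matched without version to GENCODE vM21 (37681 of 37816 genes), which gave positions and exon bases shared with no gene on either strand.

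In edgeR 4.0.16 (R 4.3.3), 1 quasi-likelihood fit with TMM and filterByExpr covered all 9 libraries, with 2-sided tests and Benjamini-Hochberg adjustment over 19353 genes. It was tested on simulated data. DESeq2 1.42.0 and the other settings at the end of the text were alternatives. Groups and replicate numbers came from the labels. The labels do not say that libraries are separate litters or batches, and p-values measure the spread between these 9 samples. Chi-square per gene between replicates was at least 8.70, so no library was counted as a copy.

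The members and lists were chosen with earlier results of these data known. Named members were the 5 C-type genes, the 3 highest and the lowest per length in each cluster, any called gene, the smallest p per cluster and comparison, and the 3 highest and 3 lowest in relative dispersion. Of each list, called genes were named, or else the 3 with the highest CPM, and Zmat2, Taf7 and Diaph1. The values of 1 list gene that this rule names are not reported here. No sequences are printed.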

Additional observations from a re-analysis of the deposited data

How the results depend on the processing

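In 84Q against 15Q, the count of clustered protocadherin genes called, 0, became 2 with no fold change threshold (Pcdhb19 and Pcdhgb1) and lay between 0 and 1 when 1 library was left out, with Pcdhb19 called without 15Q replicate 1 (adjusted p = 0.0526) and without 84Q replicate 1 (adjusted p = 0.0843, edgeR). It stayed at 0 with DESeq2, DESeq2 size factors, no filter, an adjusted p of 0.05, Xist or choroid plexus as a covariate (the latter chosen after seeing the data) and only the libraries compared, and it was 0 under all settings in the other 2 comparisons. Over the 16 other fits, the adjusted p of Pcdhb19 ran from 0.00529 to 0.275 and was under 0.1 in 9, and that of Pcdhgb1 ran from 0.0269 to 0.265 and was under 0.1 in 7. Of the 79 genes of the 5 lists, 1 (Pcdh8) was called in 84Q against 15Q, 3 with no fold threshold, and between 0 and 1 with 1 library left out. That count was 0 when replicate 2 or 3 of 15Q or replicate 3 of 84Q was left out. With no filter, 1 list gene was called in 84Q+IGF-1 against 15Q and 1 in 84Q+IGF-1 against 84Q, where the count was otherwise 0. The log2 ratios of the summed clusters moved by less than the SD among replicates in all 72 alternatives. With all exonic bases as the length, 8 of the 9 leading genes remained, and 8 with bases unshared on the same strand, a length added after seeing the data, which put Pcdhgb6 above Pcdhgc3. Over all genes, the 414 and 435 calls in 84Q and in 84Q+IGF-1 against 15Q became 1025 and 1284 with no filter, and in 84Q+IGF-1 against 84Q the 0 became 168 with no filter and 6 with DESeq2. Leaving out 1 library gave 184 to 551, 226 to 629 and 0 to 9 calls, an adjusted p of 0.05 gave 243, 281 and 0, and no fold threshold gave 928, 711 and 0. The covariates gave 280 and 335 (Xist) and 338 and 262 (choroid plexus). Of 608 alternative log2 fold changes of named genes in each comparison, 25, 39 and 33 changed sign, none of them called.

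Same-numbered libraries did not deviate together, with correlations between −0.31 and 0.08, so the numbers do not pair the samples. With the replicate number as a block, the count of members called was 0 in each comparison, and the lists had 0 calls in 84Q against 15Q (Pcdh8, adjusted p = 0.101, edgeR), where 242 genes in all were called in place of 414, and 271 in place of 435 in 84Q+IGF-1 against 15Q.

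Counts limit Pcdha4 and the 3 members not tested, and shared bases limit all alpha and gamma genes, whose shared constant exons were left out of the levels. A promoter's use in single neurons is not visible in bulk tissue.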
